A study of Homo sapiens with 12 samples.

Results

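Nutlin-3a is a small molecule that blocks the p53-binding pocket of MDM2, and its transcriptional effect was measured here in HCT116 cells that carried a control siRNA. HCT116 is a human colorectal carcinoma line with intact p53. Cells of the compared groups were transfected with siControl and received either 10 µM Nutlin-3a or the solvent DMSO, both for 24 h, with 3 replicates each. The same series holds the matching pair of groups transfected with siRFX7, again 3 replicates of each, which brings the total to 12 libraries of polyA RNA. Every group, controls included, had been through siRNA transfection, and all groups were the same cell line. The labels do not say whether replicates were separate cultures, so the p-values measure the spread between these libraries, which may be technical. The siRNA sequences are not given in the labels.

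The genes described are those listed in the authors' deposited table of Nutlin-3a against DMSO in siControl cells whose normalized count averaged 50 or more over the 12 libraries. The table listed 23195 genes, of which 13722 (59.2%) reached this level. These 13722 genes held 99.6% of the summed mean counts. Protein-coding genes, 11517 in number, form the main set, and 2205 genes belong to other biotypes. TECTA lay just inside the limit at 50.03 mean counts, and TMEM9B-AS1 lay just outside it at 49.99. Mean normalized counts of all listed genes summed to 2.68e+07 per library. Values per library were not used here, so every value below is a statistic of whole groups of libraries. Log2 fold changes, their standard errors (SE) and the adjusted p-values are those of the authors' deposited table throughout, and a gene is called changed when its adjusted p was below 0.05 over all listed genes. The group means were recovered from the deposited statistics of all 4 comparisons. Mean counts were the same in the siControl and siRFX7 comparisons, so the SE and p-values may also draw on the siRFX7 libraries.

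The epithelial identity of the line was visible in its markers. EPCAM had group means of 8665 with DMSO and 6077 with Nutlin-3a, KRT8 had 54817 and 121100.0, and CDX2, an intestinal transcription factor, had 649 and 758. CDH17 and VIL1, markers of differentiated intestinal epithelium, were near 0, with a mean normalized count of 1.41 over all libraries for CDH17 and group means of 3.67 and 4.78 for VIL1. Blood markers were unlisted or below 4, and VWF was the one endothelial marker listed, at 13.03 and 11.52. Among fibroblast genes, COL1A1 reached 400.1 and 349 and PDGFRB 7.03 and 19.3, while DCN and COL1A2 were near 1 and LUM was unlisted.

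p53 is a transcription factor that is kept scarce by MDM2, an E3 ubiquitin ligase that p53 itself switches on. Freed from MDM2, p53 binds its response elements and raises genes for cell cycle arrest, apoptosis, DNA repair, metabolism and its own feedback. Repression by p53 is known to be mostly indirect: the CDK inhibitor p21, product of CDKN1A, leads to formation of the DREAM complex, which binds CHR elements and E2F sites in the promoters of cell cycle genes.

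Across the protein-coding set, Nutlin-3a changed 7676 of 11517 genes, which is 66.6%. Of these, 3968 rose (34.5%) and 3708 fell (32.2%). Over all 23195 listed genes the share called was 43.2%, with 22% higher and 21.2% lower. The median log2 fold change of the protein-coding set was 0.02, the median absolute change was 0.34 and the median SE was 0.086. Rises and falls were near balance in number. The values are scaled by DESeq2 size factors, which assume that the typical gene does not change, so this balance is partly set by the scaling. Setting both groups to equal totals moved all values by -0.02, and centring the protein-coding median at 0 also moved them by -0.02. Neither setting can show a change in total RNA per cell. In bulk RNA, fewer cells expressing a gene and less RNA per cell cannot be told apart.

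Most calls were small. A rise below 0.58 on the log2 scale, which is about 1.5-fold, accounted for 2280 of the 3968 rises (57.5%), and 2036 of the 3708 falls (54.9%) were as small. At the large end, falls outnumbered rises. A change of at least 1 was seen in 706 genes that rose and 846 that fell, a change of at least 2 in 171 and 350, a change of at least 3 in 53 and 194, and a change of at least 4 in 19 and 112. Genes that rose held 27.7% of the DMSO counts and 41.1% of the Nutlin-3a counts. Genes that fell held 38.7% and 25.1%.

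**Figure D1:**
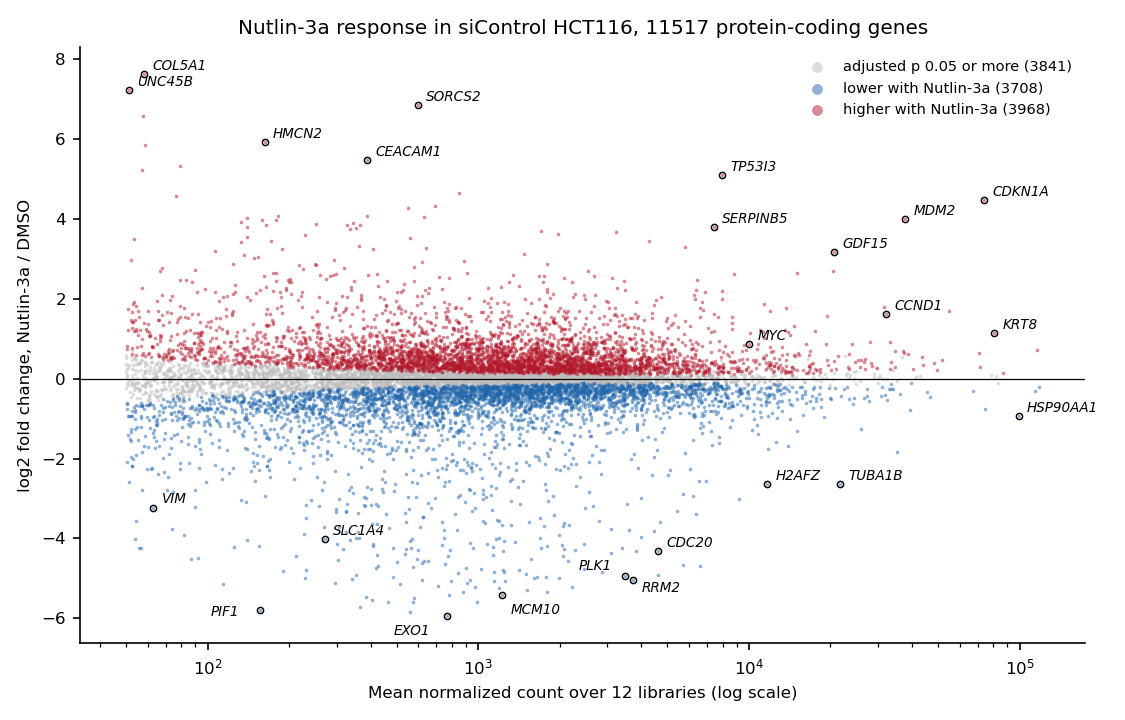
Log2 fold change with Nutlin-3a against the mean normalized count over 12 libraries (log scale) for 11517 protein-coding genes in siControl cells, 1 point per gene, red and blue where the adjusted p was below 0.05. The 10 largest rises all lie below 10000 counts, with COL5A1 the highest point at 58.2. CDKN1A and MDM2, further down on the log2 axis at 4.46 and 3.99, lie above 10000, and the 10 largest falls lie between 100 and 1000.

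MDM2 and CDKN1A, the standard reporters of p53 activity, both rose. CDKN1A (ENSG00000124762, chromosome 6 from 36676460 to 36687339 on the plus strand, GRCh38) encodes the CDK inhibitor p21. Its group mean was 5493 with DMSO and 121149 with Nutlin-3a, a log2 fold change of 4.46 ± 0.10 (SE), or 22.1-fold. MDM2 (ENSG00000135679, chromosome 12 from 68808176 to 68850686 on the plus strand) went from 4705 to 74982, a log2 fold change of 3.99 ± 0.06. Exons of CDKN1A overlap those of DINOL, and exons of MDM2 overlap AC025423.4 and CPM, each on the other strand. Since the handling of strand in the counting is not given in the sources used here, reads of such pairs cannot be told apart. Among all protein-coding members, 4239 (36.8%) have exons that overlap another listed gene.

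Among the 10 largest protein-coding rises, 5 were in genes that were almost silent with DMSO. COL5A1, a fibrillar collagen chain, had a group mean of 0.359 with DMSO and 70.9 with Nutlin-3a. Against a floor of 3 counts per library it was at least 23.6-fold higher. On the same floor UNC45B, a myosin chaperone, was at least 18.02-fold higher, CLCA2, a chloride channel regulator, at least 21.3-fold, GGT6, a gamma-glutamyltransferase, at least 38.8-fold, and FER1L6, a ferlin, at least 29.1-fold. These 5 were the protein-coding members at or below 3 counts with DMSO, and their log2 fold changes had SE values from 0.58 (FER1L6) to 1.2 (UNC45B). SORCS2, a sorting receptor, was better measured: 12.02 against 1378, a log2 fold change of 6.84 ± 0.25. HMCN2, an extracellular matrix protein, went from 3.67 to 223, CEACAM1, a cell adhesion molecule, from 9.01 to 402, and PLA2G4D, a phospholipase, from 3.003 to 119.7. TP53I3 completed the 10 largest rises, at 400.2 and 13730.3 (5.101 ± 0.12).

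The limit of 50 mean counts let such genes in through the group where they were high. In the protein-coding set, 220 genes were below 50 with DMSO, of which 164 were called higher, 53 were not called and 3 (MOXD1, NCMAP and NRG2) were called lower. With Nutlin-3a, 218 were below 50, of which 168 were called lower and 8 higher. Because these genes had to be high somewhere to enter, the balance of rises and falls among them is not read as a result. Such genes are among those named below and count in the gene lists. Below 50 with Nutlin-3a were 10 of 41 kinetochore, 8 of 36 recombination and 3 of 14 mitotic kinesin genes. Below 50 with DMSO were 7 of 113 direct p53 targets. In all, 36 protein-coding members were below 50 in both siControl groups and entered through the siRFX7 groups.

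Among the 10 largest falls were genes known for DNA repair, the spindle and the centromere. EXO1, an exonuclease of DNA repair and recombination, fell from 1695 to 27.4, a log2 fold change of -5.95 ± 0.19 or 61.8-fold lower. CKAP2L, a spindle protein, fell by 5.84 ± 0.20 on the log2 scale, and PIF1, a helicase, fell by 5.79 ± 0.37. NEIL3, a DNA glycosylase, fell by 5.72 ± 0.23 and SKA1, a kinetochore subunit, fell by 5.604 ± 0.20. HJURP, the chaperone of centromeric histone, fell from 2141 to 44.02. ERCC6L, a helicase of mitotic chromosomes, fell from 1192 to 24.7, FAM111B, a protease, from 788 to 16.9, SPC25, of the NDC80 complex, from 1264 to 28.1, and CCNE2, cyclin E2, from 815 to 18.3. Adjusted p-values in the authors' deposited table were 9.5e-55 for PIF1, the least precisely measured of the 10, and smaller for the others.

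The share of genes called was higher in classes of higher expression, where the median SE was lower. Among 654 protein-coding genes with mean counts of 50 to 100, the median SE was 0.221, the smallest change called was 0.39 and 53.7% were called. At 10000 counts or more (339 genes), the median SE was 0.058, the smallest change called was 0.10 and 76.7% were called. The classes between were called in 60.1%, 66.8%, 68.5% and 71.2% of genes, in order of level. Large changes went the other way: 26.9% of the lowest class and 10.3% of the highest changed by at least 1. Falls of that size outnumbered rises in the 4 classes below 3000 counts, most clearly at 300 to 1000 with 310 falls and 200 rises. Rises outnumbered falls above it, with 84 and 63 at 3000 to 10000, and 22 and 13 at 10000 or more. No test between classes was made. The lowest class had the largest median SE and holds genes that entered through the group where they were high. Its share of changes of at least 1 is therefore not read as a stronger response.

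**Figure D2:**
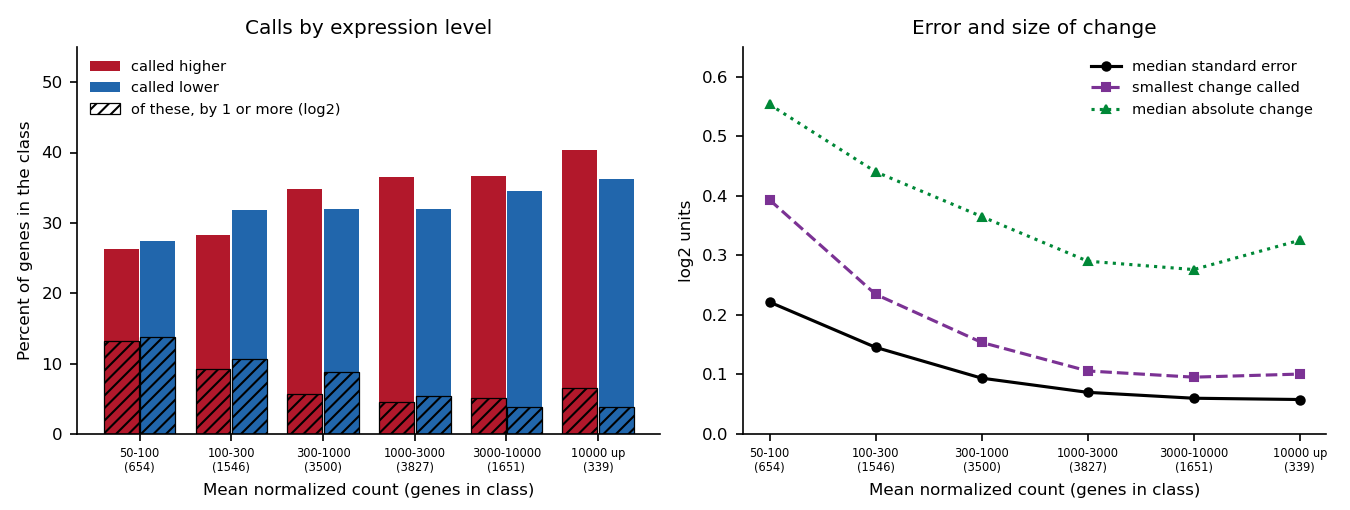
Protein-coding genes by mean normalized count class. Left, percent of each class called higher (red) or lower (blue), with changes of at least 1 on the log2 scale hatched; right, median SE, smallest change called and median absolute change, all in log2 units. The share called climbs from 53.7% to 76.7% as the median SE drops from 0.221 to 0.058.

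Named genes mark each level. At 50 to 100 counts, the largest falls were FANCB, a Fanconi anaemia core subunit (187 to 8.12), and MYB, a proliferation-linked transcription factor (222 to 9.82). In the next class FAM72D fell from 276 to 7.79, although near-identical FAM72 copies make its value uncertain. KLHDC7A, a kelch protein, rose from 15.7 to 262. At 1000 to 3000 counts GALNT5, a glycosyltransferase, rose from 226 to 2955 and CD82, a tetraspanin known as a metastasis suppressor, from 227 to 2800.02. The largest falls there were in MCM10 (-5.43 ± 0.12) and KIF2C (-5.35 ± 0.11). RRM2 and PLK1 were the largest falls at 3000 to 10000 counts, from 8707 to 266 and from 7732 to 252. Above 10000, H2AFZ, a histone variant, fell from 23327 to 3735, and TUBA1B, an alpha tubulin, from 40198 to 6459.

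In normalized counts, which also scale with transcript length, some abundant genes shifted by large amounts, at large and at modest fold changes. These genes were chosen after their values were seen. CDKN1A gained 115656 normalized counts per library and MDM2 70277. Keratin genes KRT8 and KRT19 gained 66283 and 60836, EEF2, a translation elongation factor, 63502, and CCND1, cyclin D1, 39976. On the losing side HSP90AA1, the inducible HSP90, dropped by 58309, the tubulin gene TUBB dropped by 41092 and HSPA8, a constitutive chaperone, dropped by 36439.7. EEF2 had a log2 fold change of 0.71 ± 0.05 and HSPA8 one of -0.76 ± 0.05.

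Functional groups were compared through 43 gene lists written from general knowledge, each described from the authors' deposited table by its counts and its median, beside 34.5% higher, 32.2% lower and a median of 0.02 over the protein-coding set. These lists were written with earlier results of these data known, and no list was tested as a set. Lists share members, so a gene can count in several of them.

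**Figure D3:**
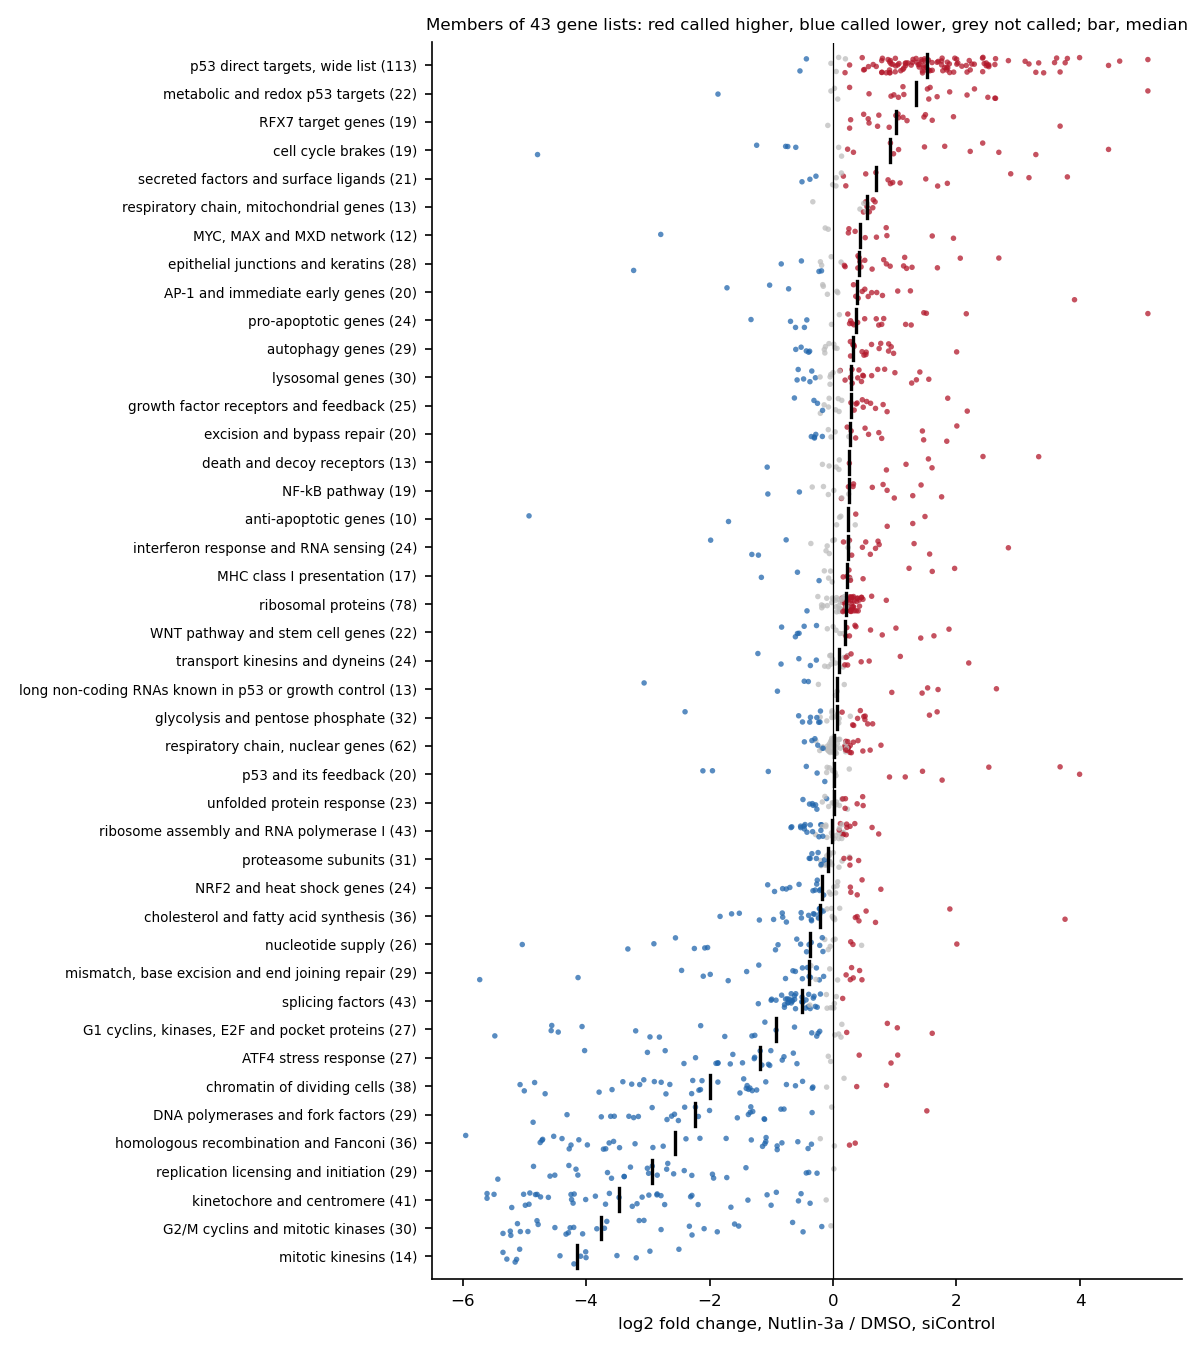
Log2 fold change with Nutlin-3a of the members of 43 gene lists, 1 point per gene, red called higher, blue called lower and grey not called, with the median as a bar and the number of members in brackets. Lists are ordered by median, from 1.53 for the wide list of direct p53 targets to -4.14 for mitotic kinesins.

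Nearly all listed direct targets of p53 rose. Of 113 measured members of a wide list of activated targets, 107 rose, 2 fell and 4 were not called, with a median log2 fold change of 1.53, and 86 rose by at least 1. Published target collections rest in part on cells treated with Nutlin-3a, so the direction of this list is not independent evidence. The list held 0.688% of the counts with DMSO and 2.52% with Nutlin-3a. Behind TP53I3, the largest rise was in ABCA12, a lipid transporter (66.1 to 1651). The falls were PLTP, a phospholipid transfer protein, at -0.54 ± 0.20 and DYRK3, a kinase, at -0.43 ± 0.13. E2F7, a repressor of E2F genes, was not called at 1024 and 1092, nor was FOXO3, a forkhead factor, at 1337 and 1306. KITLG, the KIT ligand, was at 26360.4 and 27323 (adjusted p = 0.57), and SAC3D1 was at 1188 and 1365.

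Few of these genes carry a p53 element close to their start. The response element consists of 2 abutting half-sites of 10 bases. RefSeq promoters (GRCh38.p14, 250 bases before to 50 after the start) were searched for a 20-base element with at most 2 mismatches and intact C and G in both half-site cores. A promoter was found for 9493 of 11517 protein-coding members (82.4%). The element was found in 11 of 3202 genes called higher (0.344%), 3 of 3087 called lower (0.0972%) and 3 of 3204 not called (0.0936%), against 0.271% of all 27305 promoters. The matches among genes called lower were in PRPF6, MORC4 and LRRC49, and those among genes not called in PPP2R1A, NSMCE3 and ALKBH8. In the wide list of targets, 2 of 93 promoters held it, those of AEN and DCP1B. p53 elements are known to lie often in introns or further upstream, outside this window. The 4 windows below show the element in genes that rose, among them the 1 match without a mismatch, in PTCHD4. Each is written 5′ to 3′ on the gene's strand with the element in capitals.
PTCHD4: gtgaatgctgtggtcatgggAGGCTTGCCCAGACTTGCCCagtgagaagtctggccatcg
ACTA2: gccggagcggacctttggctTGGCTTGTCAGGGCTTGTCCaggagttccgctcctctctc
S100A6: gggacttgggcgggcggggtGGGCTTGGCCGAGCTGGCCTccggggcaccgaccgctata
AEN: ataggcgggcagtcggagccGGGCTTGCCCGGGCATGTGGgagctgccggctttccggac
The printed windows lie at chr6:48111178-48111237 on the minus strand (PTCHD4), chr10:88991289-88991348 on the minus strand (ACTA2), chr1:153536018-153536077 on the minus strand (S100A6) and chr15:88621286-88621345 on the plus strand (AEN). PTCHD4, a patched-domain protein, rose from 25.4 to 208, and its RefSeq start lies upstream of the GENCODE 29 gene, which spans 47878028 to 48068689. ACTA2, smooth muscle actin, rose from 96.1 to 933, and its exons overlap those of FAS on the other strand. S100A6, a calcium-binding protein, rose from 13401 to 46296, and AEN, an exonuclease of apoptosis, from 2392 to 3887. The other 13 matches included genes with little or no change, such as VDAC2, a mitochondrial channel, at 0.19 ± 0.06 and PPP2R1A, a phosphatase subunit, at 0.02 ± 0.05. A match is a description and shows no binding, and no match says only that these letters are not in this window.

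The circuit that controls p53 moved in both directions. Of 20 members, 7 rose (35.0%), 6 fell (30.0%) and 7 were not called, shares near the 34.5% and 32.2% over all protein-coding genes, with a median of 0.01 that turned to -0.01 under both other scalings. TP53INP1, a cofactor that stabilises p53 activity, went from 528 to 6757 (3.68 ± 0.08), and ZMAT3, an RNA-binding target of p53, from 882 to 5072. CHEK1, the kinase of the replication checkpoint, fell from 2209 to 513 (-2.11 ± 0.07), and CHEK2 fell from 973 to 471. TP73, the p53 paralogue, fell from 939 to 243. The damage kinases ATM and ATR and the MDM2 relative MDM4 were among the genes not called.

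Brakes of the cell cycle showed both directions. Of 19 members, 12 rose and 5 fell, with a median of 0.93. After CDKN1A came BTG2, an antiproliferative adaptor of mRNA decay (1093 to 10656), and SFN, 14-3-3 sigma (5481 to 35278). Among INK4 genes, CDKN2C fell from 513 to 18.6 (-4.79 ± 0.24), CDKN2A fell by 1.24 ± 0.11 on the log2 scale and CDKN2D fell by 0.77 ± 0.12. GADD45B was not called at 526 and 579.

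Apoptosis genes moved in both directions, with rises in front. Of 24 pro-apoptotic members, 17 rose and 5 fell, with a median of 0.37, and 6 rose by at least 1. BBC3, which encodes PUMA, rose from 659.5 to 2945 (2.16 ± 0.09) and BAX, the pore-forming effector, from 1889 to 5389.9 (1.51 ± 0.09). SIVA1, an apoptosis adaptor, fell from 2880.2 to 1147, CASP2, a caspase, fell by 0.69 ± 0.09 on the log2 scale and HRK, a BH3-only gene, fell by 0.61 ± 0.14. CYCS, cytochrome c, was at 8432 and 8289 and was not called. Among 13 death and decoy receptor genes, 7 rose and 1 fell. FAS, a death receptor, rose from 434 to 2337 and TNFRSF10B, the TRAIL receptor DR5, from 4299 to 12549. The decoy receptors TNFRSF10C and TNFRSF10D rose by 3.33 ± 0.15 and 1.604 ± 0.06, and NGFR fell by 1.07 ± 0.11. FADD, the adaptor of death receptors, had a log2 fold change of -0.17 ± 0.08 (adjusted p = 0.08). Under both other scalings it was called lower, with -0.20 at equal totals.

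Anti-apoptotic genes moved in both directions. Of 10 members, 4 rose (40%) and 2 fell (20%), beside 34.5% and 32.2% over all protein-coding genes, and 4 were not called. BCL2L1, which encodes BCL-XL, rose from 7602 to 13971 (0.88 ± 0.04), CFLAR, an inhibitor of caspase 8, from 598 to 1681, and BIRC3 from 100.02 to 245. BIRC5, survivin, which also serves the mitotic chromosomal passenger complex, fell from 8424 to 278 (-4.92 ± 0.12), and BCL2 fell from 253 to 78.4. XIAP, at 0.13 ± 0.06, was not called.

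DNA repair divided by type. In excision and bypass repair, 11 of 20 members rose and 5 fell, with a median of 0.28. RRM2B, the p53-inducible ribonucleotide reductase subunit, rose from 2615 to 10503 (2.01 ± 0.07), POLH, the bypass polymerase eta, from 729.9 to 2618, and XPC, a damage sensor, from 1669.7 to 4620.1. REV1 fell by 0.35 ± 0.09. In homologous recombination and the Fanconi pathway, 32 of 36 members fell and 2 rose, with a median of -2.57. Besides EXO1, EME1, a nuclease subunit, fell from 944 to 35.2 and BRIP1, a BRCA1-associated helicase, from 1182 to 45.05. FANCF rose by 0.36 ± 0.11. RAD52 rose by 0.27 ± 0.11, but with equal totals or a centred median it was not called. Mismatch, base excision and end joining repair lay between, with 19 of 29 lower and 6 higher and a median of -0.39. MSH6, a mismatch sensor, fell from 4161 to 760.3, POLQ, the polymerase of alternative end joining, from 877 to 50.1, and LIG4, the ligase of end joining, rose by 0.33 ± 0.08.

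Metabolic and redox targets of p53 rose in 18 of 22 members and fell in 1, with a median of 1.34. FDXR, a mitochondrial reductase, rose from 2420.1 to 15012, ACER2, a ceramidase, from 91.4 to 563, and GPX1, a glutathione peroxidase, from 4737 to 14093. The member that fell was SLC7A11, the cystine importer, from 3917 to 1077 (-1.86 ± 0.11). In the autophagy list 17 of 29 members rose and 5 fell, with a median of 0.32. DRAM1, a lysosomal p53 target, stood out at 2.003 ± 0.06, and GABARAPL1 and ULK1 rose by 0.98 ± 0.07 and 0.94 ± 0.07. Lysosomal genes were similar, with 18 of 30 higher and 6 lower. FUCA1, a fucosidase, rose from 680.4 to 1995, SGSH by 1.41 ± 0.08 and GAA by 1.35 ± 0.06, whereas LAMP2 fell by 0.56 ± 0.07.

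Secreted factors rose in 14 of 21 measured members and fell in 3, and 11 others on the list were below the limit of 50. SERPINB5, maspin, went from 854 to 11861 (3.796 ± 0.07) and GDF15, a stress cytokine, from 4812 to 43435 (3.17 ± 0.08). VEGFA (-0.50 ± 0.06), IGFBP2 (-0.37 ± 0.12) and SERPINE2 (-0.28 ± 0.05) fell. TGFB1, at 1901 and 1893, was not called.

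**Figure D4:**
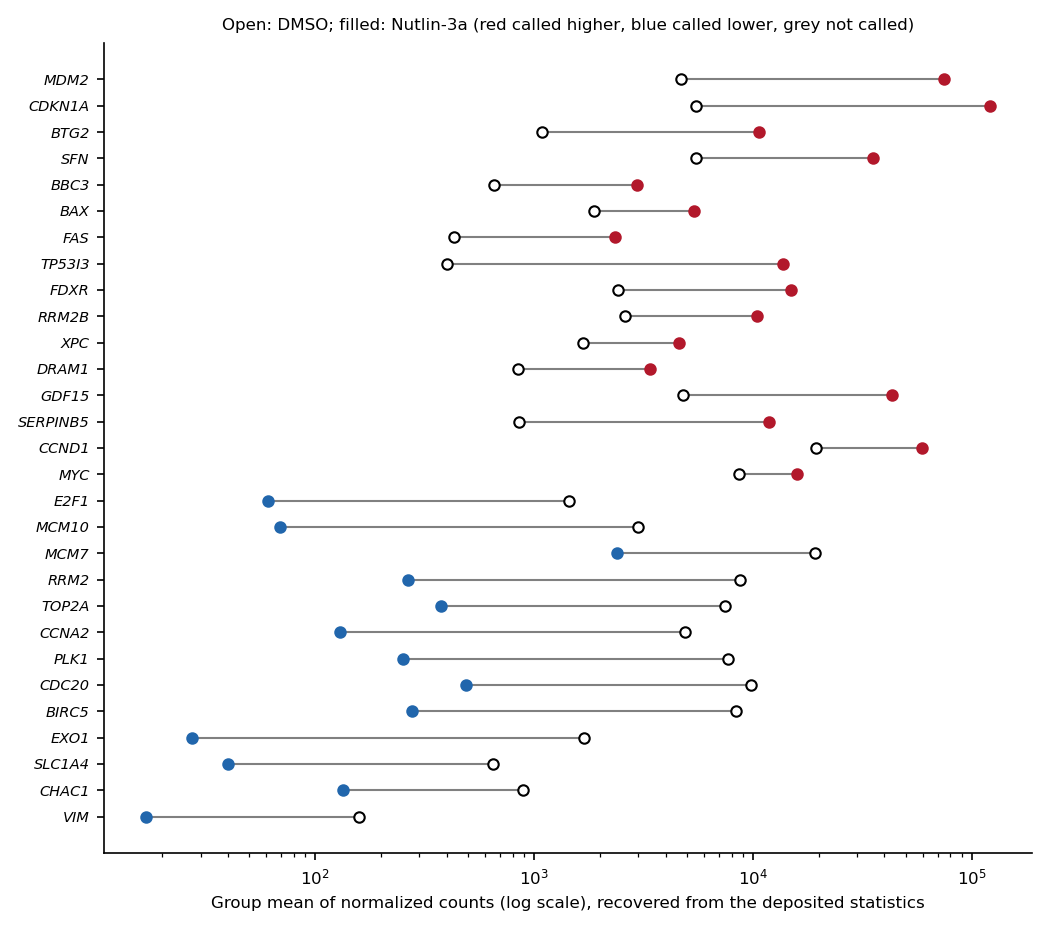
Group means of normalized counts (log scale) with DMSO (open) and Nutlin-3a (filled) for 29 genes named in the text, from p53 feedback and arrest genes at the top to mitotic and stress genes at the bottom. CDKN1A and MDM2 shift right by 22.1-fold and 15.9-fold, and the replication and mitosis genes shift left by at least 8-fold, with MCM7 the smallest of them.

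Genes of DNA replication fell together. Of 29 licensing and initiation genes, 28 fell, none rose, and the median was -2.93. MCM10, an initiation factor, fell from 2977 to 69.1 (-5.43 ± 0.12), GINS2 from 2521 to 87.3, CDC45 from 1186 to 49.4, and MCM7, a helicase subunit, from 19323 to 2404 (-3.01 ± 0.05). ORC4, a subunit of the origin recognition complex, was the exception at 1436 and 1450.3. Of 29 polymerase and fork genes, 27 fell, with a median of -2.23. CLSPN, claspin, fell from 1866 to 64.4, TOP2A, topoisomerase II alpha, from 7468 to 377, and FEN1, the flap endonuclease, from 6183 to 459. POLD4, a small polymerase delta subunit, rose from 47.1 to 135, and TOP1, topoisomerase I, was at 12351 and 12171 and was not called.

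The supply of nucleotides was shifted at its S phase enzymes. Of 26 members, 17 fell and 3 rose, with a median of -0.37. RRM2, the ribonucleotide reductase subunit of S phase, fell by 5.03 ± 0.08 while its counterpart RRM2B rose by 2.01 ± 0.07. Per kilobase of exon, the group means with DMSO were 1636 for RRM2 and 471 for RRM2B, and with Nutlin-3a they were 49.96 and 1893, so the order of this pair turned. TK1, thymidine kinase, fell from 10396 to 1039. IMPDH2, of guanine synthesis, rose by 0.29 ± 0.06.

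Regulators of G1 moved apart. Of 27 cyclins, kinases, E2F and pocket protein genes, 19 fell and 4 rose, with a median of -0.92. E2F1 fell from 1450.5 to 61.3 and MYBL2, which encodes B-MYB, from 4668 to 199. CCND1 rose from 19533 to 59509 (1.61 ± 0.04), CDK6, a partner of cyclin D, from 2307 to 4749, TFDP2 by 0.88 ± 0.07 and RB1, the retinoblastoma gene, by 0.22 ± 0.09. E2F3, E2F5 and RBL2 were not called, with values of 0.03 ± 0.06, 0.13 ± 0.10 and 0.14 ± 0.08. In the MYC network, 9 of 12 members rose and 1 fell. MYC itself rose from 8692 to 15919 (0.87 ± 0.07), and so did the antagonists MXD4 (715 to 2766) and MXD1 (91.1 to 277). MXD3 fell from 500.4 to 72.3.

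Mitotic genes had the lowest medians of the 43 lists. Of 30 G2/M cyclins and kinases, 29 fell, with a median of -3.76. NEK2, a centrosomal kinase, fell from 1899 to 46.7 (-5.35 ± 0.16), CCNA2, cyclin A2, from 4886 to 130.4, GTSE1, a microtubule-binding protein, from 2105 to 56.6, and CDC20, an activator of the anaphase promoting complex, from 9822 to 490.2. FZR1, the other activator of that complex, was at 2116 and 2067 and was not called. Of 41 kinetochore and centromere genes, 40 fell, with a median of -3.47. BUB3, a checkpoint protein, fell by 0.56 ± 0.07 and MAD1L1 was not called at -0.11 ± 0.10. All 14 mitotic kinesin genes fell, with log2 fold changes from -5.35 to -2.496 and a median of -4.14. KIF2C fell from 4171 to 103, KIFC1 from 3586 to 92.1, KIF15 from 1129 to 31.8 and KIF22 from 5614 to 616.

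Kinesins and dyneins of transport moved in both directions. Of 24 members, 9 rose (37.5%), 5 fell (20.8%) and 10 were not called, with a median of 0.10. Over all protein-coding genes the shares were 34.5% and 32.2%. KIF26B rose from 43.4 to 199 and DYNC1H1, the dynein heavy chain, by 0.59 ± 0.14, while KIF26A fell from 974 to 419. Chromatin genes of dividing cells fell in 34 of 38 members, with a median of -1.99. The condensin subunits NCAPH (-5.07 ± 0.13) and NCAPG (-4.83 ± 0.08) and the histone chaperone ASF1B (-5.000 ± 0.10) fell most. ASF1A, its paralogue, was not called at -0.10 ± 0.07, and LMNA, lamin A, and HMGA2, an architectural protein, rose by 0.87 ± 0.07 and 0.38 ± 0.07.

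Short motifs near the start were more frequent in the promoters of genes that fell, as a description with no test. The CHR (TTTGAA or TTCGAA, either strand) is bound by DREAM, the CCAAT box (CCAAT) by NF-Y, and TTCCCGCC is an E2F site. Their windows and gene matches are those of the p53 element search. The CHR was present in 8.74% of genes called higher, 9.39% of those not called and 14.0% of those called lower. It was present in 26.5% of genes that fell by at least 1, 37.6% of those that fell by at least 2 and 73 of 163 (44.8%) that fell by at least 3. In the 250 bases before the start alone, the last 2 shares were 24.5% and 29.4%. All 27305 promoters held it in 16.6% and protein-coding members in 10.7%. In those 73 promoters the CHR nearest to the start began at a median of 18 bases before it, and in 59 of them within 50 bases. The CCAAT box was in 33.5% of genes called higher and 61.3% of those that fell by at least 3, against 35.7% of all promoters. The E2F site was in 2.998% and 12.3% of these sets, and in 13.8% of genes that fell by at least 2. All promoters held it in 3.18% and protein-coding members in 5.35%. CHR and CCAAT box came together in 33.1% of genes that fell by at least 3 and 2.9% of those called higher. Genes that rose by at least 1, 2 or 3 had a promoter in 539 of 706, 132 of 171 and 38 of 53 cases. For falls of these sizes it was 699 of 846, 290 of 350 and 163 of 194. The CHR was in 9.65%, 13.6% and 21.1% of the promoters of the rises, so its share also climbed with the size of the rise. The last share is 8 of 38 promoters, and the lower coverage of rises limits the comparison with the falls.

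The 8 windows printed here show the CHR, in capitals, in genes of the spindle, the centromere and chromatin, 5′ to 3′ on the gene's strand. The capitals read TTTGAA, or TTCGAA in BUB1, and TTCAAA where the element lies on the other strand.
CKAP2L: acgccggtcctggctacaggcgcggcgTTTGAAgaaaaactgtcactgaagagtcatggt
SPC25: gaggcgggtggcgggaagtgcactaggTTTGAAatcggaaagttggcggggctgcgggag
KIF14: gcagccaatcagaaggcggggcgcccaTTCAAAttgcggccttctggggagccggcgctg
CENPA: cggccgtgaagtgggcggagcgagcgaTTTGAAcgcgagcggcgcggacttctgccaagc
ASF1B: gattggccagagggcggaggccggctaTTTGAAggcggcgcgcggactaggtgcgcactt
PLK1: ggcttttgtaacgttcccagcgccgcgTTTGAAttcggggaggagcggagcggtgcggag
BUB1: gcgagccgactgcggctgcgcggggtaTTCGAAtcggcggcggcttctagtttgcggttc
CDC20: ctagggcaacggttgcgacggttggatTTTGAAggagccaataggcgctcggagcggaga
They lie at chr2:112764594-112764653 on the minus strand (CKAP2L), chr2:168890401-168890460 on the minus strand (SPC25), chr1:200620718-200620777 on the minus strand (KIF14), chr2:26786011-26786070 on the plus strand (CENPA), chr19:14136584-14136643 on the minus strand (ASF1B), chr16:23678833-23678892 on the plus strand (PLK1), chr2:110678030-110678089 on the minus strand (BUB1) and chr1:43358889-43358948 on the plus strand (CDC20). PLK1, a mitotic kinase, fell by 4.94 ± 0.08 on the log2 scale and CENPA, the centromeric histone, fell by 5.01 ± 0.19. BUB1, a checkpoint kinase, fell by 4.78 ± 0.09 and KIF14, a kinesin of cytokinesis, fell by 5.08 ± 0.16. By list, the CHR was found in 11 of 14 mitotic kinesins, 12 of 24 G2/M genes and 18 of 34 kinetochore genes, but in 2 of 25 licensing genes and 1 of 25 polymerase and fork genes. The last 2 lists held the CCAAT box in 15 and 14 promoters and the E2F site in 4 and 6.

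**Figure D5:**
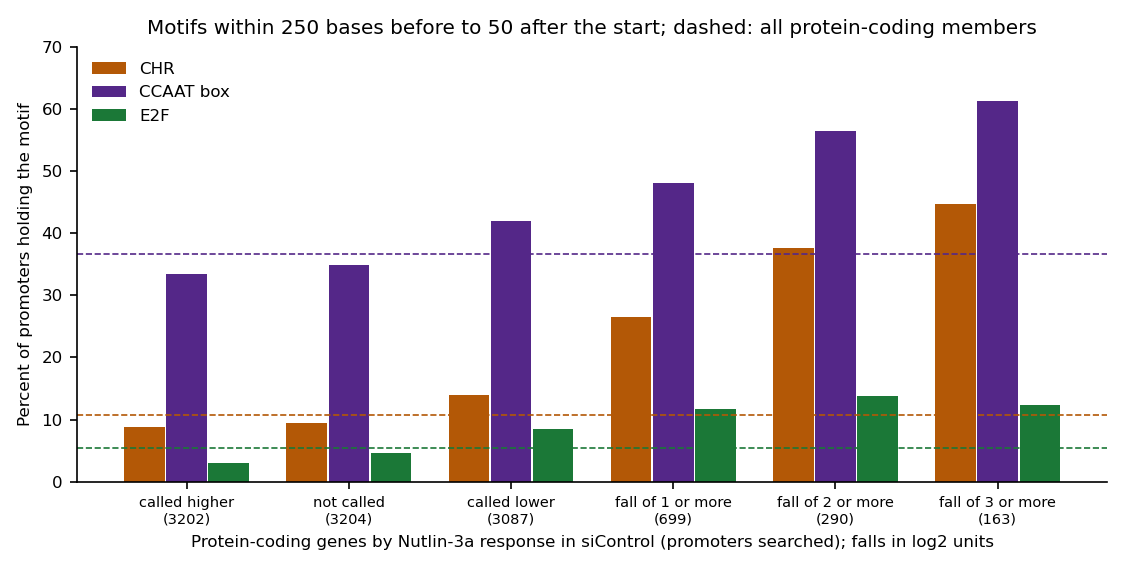
Percent of RefSeq promoters that hold a CHR, a CCAAT box or an E2F site, for protein-coding genes by their Nutlin-3a response in siControl cells, with the number of promoters in brackets and the share in all protein-coding members as a dashed line. The CHR bar climbs from 8.74% in genes called higher to 44.8% in genes that fell by at least 3 on the log2 scale. Genes by size of rise are not drawn.

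Listed genes of translation and RNA processing changed by less than 1 on the log2 scale, except 2 splicing factors. Of 78 ribosomal protein genes, 47 rose, 1 fell and 30 were not called, with a median of 0.22. RPL13A rose from 14119.5 to 25687 and RPL3 from 37393 to 57708, whereas RPL8 was not called at 0.10 ± 0.09, and RPL41 fell by 0.42 ± 0.14. Ribosomal protein genes have many processed pseudogenes, and how reads with several matches were counted is not given in the sources used here. Of 43 ribosome assembly genes, 11 rose (25.6%) and 15 fell (34.9%), beside 34.5% and 32.2% over all protein-coding genes. RRP12 rose by 0.74 ± 0.05, UBTF, the RNA polymerase I activator, fell by 0.68 ± 0.06 and NCL, nucleolin, fell from 56397 to 40702. Splicing factors fell in 34 of 43 members, with a median of -0.50. SRSF2 fell from 12039 to 5205, HNRNPD from 19328 to 9648, and the 1 rise was in SF3A3 (0.16 ± 0.05). SRSF7 fell by 0.99 ± 0.07 and HNRNPA2B1 fell by 0.78 ± 0.05. Of these falls, 20 reached 0.58. Proteasome subunits changed little: 4 of 31 rose and 9 fell, and none by 0.58 or more. PSMC4 rose by 0.42 ± 0.06 and PSMA7 fell by 0.39 ± 0.11.

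Most genes of the ATF4 stress response fell, with amino acid genes in front. ATF4 is a transcription factor that raises amino acid import and synthesis when they run short. Of 27 targets, 22 fell and 3 rose, with a median of -1.18. SLC1A4, a neutral amino acid transporter, fell from 650.1 to 39.98 (-4.02 ± 0.17), PCK2, a mitochondrial carboxykinase, from 2762 to 344, CHAC1, which degrades glutathione, from 888 to 135, and SLC7A5, the leucine importer, from 43907 to 18217. The rises were ATF3 (1.05 ± 0.09), SESN2 (0.94 ± 0.08) and PPP1R15A (0.42 ± 0.10), of which SESN2 and ATF3 are also known p53 targets. SARS, a seryl-tRNA synthetase, was not called at 9431 and 8945. Genes of the unfolded protein response had a median of 0.01, which turned to -0.01 under both other scalings. Of 23 members, 6 rose (26.1%) and 7 fell (30.4%), all by less than 0.58, beside 34.5% and 32.2% over all protein-coding genes. HERPUD1 fell by 0.49 ± 0.05, HYOU1 rose by 0.48 ± 0.04 and HSPA5, the chaperone BiP, fell by 0.10 ± 0.04. Of 24 NRF2 and heat shock genes, 13 fell and 5 rose. HSP90AA1 fell from 121163 to 62854. HSPA1A (-1.06 ± 0.17) and HSPA1B (-0.82 ± 0.05) fell too, although the values of these near-identical copies are uncertain. HMOX1, heme oxygenase, rose by 0.78 ± 0.06.

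Lipid and energy metabolism held single large changes within mild groups. Of 36 genes of cholesterol and fatty acid synthesis, 21 fell and 7 rose, with a median of -0.22. EBP (-1.83 ± 0.13), INSIG1 (-1.64 ± 0.08) and ACAT2 (-1.52 ± 0.08), all of the sterol pathway, fell. ABCA1, the cholesterol exporter, rose from 35.4 to 479 (3.76 ± 0.21), TM7SF2, a sterol reductase, from 619 to 2298, and FASN, fatty acid synthase, from 44276 to 58047. In glycolysis and the pentose phosphate pathway, 12 of 32 rose (37.5%) and 9 fell (28.1%), near the 34.5% and 32.2% over all protein-coding genes. TIGAR, a p53 target that dampens glycolysis, rose from 872 to 2807, and SLC2A1, the glucose importer GLUT1, from 10351 to 30563. HKDC1, a hexokinase, fell from 118 to 22.3 and LDHA, lactate dehydrogenase, from 27505 to 19527. PKM was called higher at 0.15 ± 0.05, but not with equal totals. Nuclear genes of the respiratory chain were mostly not called (40 of 62), with 16 higher and 6 lower and a median of 0.02, which was below 0 at equal totals. NDUFV3 rose by 0.78 ± 0.06 and NDUFA6 fell by 0.46 ± 0.06. Of the 13 protein-coding genes of the mitochondrial genome, 7 rose and 6 were not called, with a median of 0.55 against 0.02. Their errors were large for their level: MT-ND5 had 0.64 ± 0.26 at 7065 and 11048, and MT-CO1 had 0.55 ± 0.18 at 22049.9 and 32292. Genes above 10000 counts had a median SE of 0.058.

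In the signalling lists, rises outnumbered falls. Among growth factor receptors and their feedback genes, 13 of 25 rose and 4 fell. EPHA2, an ephrin receptor, rose from 5652 to 20497 (1.86 ± 0.05), SPRY1, a feedback inhibitor, from 64.8 to 292, and FGFR1 fell from 1580.3 to 1025. Of 20 AP-1 and immediate early genes, 12 rose and 3 fell. EGR2 rose from 12.7 to 191 and FOSL2 from 1359 to 3242, while FOS fell from 102 to 31.1 and EGR1 from 943 to 463. JUN was not called at 519 and 488. In the NF-kB list, 11 of 19 rose and 2 fell: TRAF4 rose from 2807 to 9503 and TRAF2 fell from 1060.2 to 510.1. In the WNT list, 11 of 22 rose and 6 fell. DKK1, a secreted WNT inhibitor, rose from 2343 to 7276, and AXIN2, a feedback target of WNT, fell from 664 to 373. CTNNB1, beta-catenin, was at 14714 and 15220.2 and was not called.

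In both immune lists rises outnumbered falls. Of 17 MHC class I genes, 9 rose (52.9%) and 3 fell (17.6%), against 34.5% and 32.2% over all protein-coding genes. TAP1, a peptide transporter, rose from 1740.3 to 6817 (1.97 ± 0.05) and MR1 from 229.9 to 701. B2M, the shared light chain, fell by 0.23 ± 0.07 and PSMB9 from 92.9 to 41.6. Of 24 interferon and RNA sensing genes, 12 rose and 4 fell. TLR3, a sensor of double-stranded RNA, rose from 45.7 to 328, ISG15 from 1326 to 3926 and TMEM173, which encodes STING, from 376 to 934. OAS3 fell from 1546 to 391, IFIT1 from 137 to 55.2 and IRF7 from 65.8 to 28.5.

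Epithelial genes rose in 19 of 28 members and fell in 5, with a median of 0.43. KRT19 rose from 27288 to 88124 (1.69 ± 0.10), KRT8 from 54817 to 121100.0, and KRT15 from 220.1 to 919. EPCAM fell by 0.51 ± 0.09 and ESRP1, an epithelial splicing regulator, from 5900.1 to 3299.8. VIM, vimentin, included as the mesenchymal counterpart, fell from 159 to 16.96 (-3.23 ± 0.28), and CTNNA1 was not called at -0.03 ± 0.04.

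Outside the protein-coding set the authors' deposited table called 1047 of 2205 genes (47.5%), with 467 higher (21.2%) and 580 lower (26.3%). Their median SE was 0.151, and that of the protein-coding set was 0.086. Long intergenic RNAs rose in 64 of 158 and fell in 30, and antisense RNAs rose in 61 of 194 and fell in 42. Among known regulatory RNAs, H19 rose from 92.4 to 579, MIR34AHG, the host of the p53-induced miR-34a, from 27.4 to 89.03, MIR22HG from 47.1 to 136 and NORAD from 5128 to 13946. DLEU2 fell from 743 to 89.1, SNHG1 from 3785 to 2028 and CRNDE from 143 to 24.3. NEAT1 and GAS5 were not called, at 0.18 ± 0.12 and 0.04 ± 0.08. AL109976.1, a long intergenic RNA, rose from 15.4 to 119.5.

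Processed pseudogenes mostly moved in the direction of the parent gene whose sequence they share, while antisense RNAs and the coding genes they overlap moved both together and apart. Of the 194 antisense RNAs, 117 overlap an exon of a coding member, in 128 pairs. Both genes were called in the same direction in 36 pairs and in opposite directions in 18, and at least 1 of them was not called in 74. AC025423.4, antisense to MDM2, rose from 5.68 to 168 (4.89 ± 0.41), and TMPO-AS1 fell from 199 to 10.2 (-4.29 ± 0.31). All 785 exon bases of AC025423.4 overlap exons of MDM2, so its value may hold reads of MDM2. Processed pseudogenes with a recognisable parent among the members numbered 933, from 593 parents. Where the parent rose (260), 151 of the pseudogenes rose and 0 fell. Where it fell (393), 264 fell and 2 (HTR7P1 and TPM3P9) rose, and where it was not called (280), 19 rose and 9 fell. Of the 16 whose parent fell by at least 2, all 16 fell. Across these 933 genes, which are not independent and share sequence with their parents, Pearson's r between pseudogene and parent was 0.972. NEK2P4, a copy of NEK2, fell from 129 to 3.39, and ASS1P7, a copy of ASS1, rose from 47.4 to 187. Whether such values come from the pseudogene or from reads of its parent was not tested.

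The response to Nutlin-3a was set beside that in siRFX7 cells, from libraries outside the siControl groups. RFX7 is a transcription factor known to act downstream of p53. Of the 3968 protein-coding genes that rose in siControl cells, 3333 (84.0%) also rose in siRFX7 cells, which is 81.5% of the 4089 that rose there. Of the 3708 that fell, 2894 (78.0%) also fell, which is 87.2% of 3317. Calls in opposite directions numbered 14 and 37. The difference of the 2 log2 fold changes was tested for each gene with a two-sided z test adjusted over 23195 genes. It passed in 6.2% of all listed genes and in 1268 protein-coding members (11%), of which 712 had a more positive change in siRFX7 cells and 556 a more negative one. With equal totals in each comparison that split turned to 546 and 660, so its balance depends on the scaling.

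For most named targets of RFX7 the Nutlin-3a effect was lower in siRFX7 cells. Of 19 measured members, 18 rose with Nutlin-3a in siControl cells, with a median of 1.02, and in 14 the log2 fold change was lower in siRFX7 cells by that z test. There the median was 0.35, with 11 members called higher and 5 called lower. This list rests on published work that may include these same libraries, and its direction is no independent evidence. MXD4 changed by 1.95 ± 0.08 in siControl cells, and the effect in siRFX7 cells was lower by 2.01 ± 0.13 (adjusted p = 9.4e-53). TSPYL2, a nucleosome assembly protein, was the member not called in siControl cells, at -0.08 ± 0.08, and its effect in siRFX7 cells was lower by 1.48 ± 0.14 (adjusted p = 8.2e-25). Lower effects were not confined to RFX7 targets. Among 113 members of the wide p53 list the difference was below 0 in 45 and above 0 in 8. Among the 3968 genes called higher in siControl cells, it was below 0 in 397 and above 0 in 137. Among the 3708 called lower there, the difference was above 0 in 439 and below 0 in 108. Both sets were picked by the siControl change that enters the difference, so a lean toward a smaller effect is partly built in. In the ATF4 list the difference was above 0 in 23 of 27 members and below 0 in 0. The median was -1.18 in siControl cells and -0.27 in siRFX7 cells, where 16 members were called lower and 4 higher. CHAC1 differed by 2.49 ± 0.18 (adjusted p = 1e-41) and SLC1A4 by 2.03 ± 0.22 (adjusted p = 7.1e-17). For MDM2 the difference was -0.69 ± 0.09 (adjusted p = 1.9e-12) and for CDKN1A -0.93 ± 0.13 (adjusted p = 7.2e-10). For GDF15 it was -0.003 ± 0.12 (adjusted p = 0.996), not called.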

How the data were processed

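PolyA RNA, from 500 ng of total RNA, was sequenced in 12 HCT116 libraries, 3 in each of 4 groups. Per the submitters' processing notes, bcl2fastq 2.20.0.422, Trimmomatic 0.39, FastQC 0.11.9, cutadapt 2.10, SAMtools 1.10, Picard, featureCounts 1.6.5, DESeq2 1.20.0 and the build hg38 were used; the aligner, the annotation and the handling of strand are not given in the sources used here. Per the file headers, the authors deposited for each gene a mean normalized count, a signal on the scale of DESeq2 size factors, with a log2 fold change and its SE. They also deposited the Wald statistic, a score, and its p-value with an adjusted value. The latter matched a Benjamini-Hochberg adjustment over the listed genes.

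No model was refitted, since the tables hold no values per library; sample groups came from the titles and characteristics. Group means were solved from the 4 tables, whose mean runs over 12 libraries. Positions came from GENCODE 29 (GRCh38). Effects in siControl and siRFX7 cells were compared with a two-sided z test, run also on simulated data. The simulation drew normal errors from the same SE, so it cannot show whether those SE hold for these libraries. Promoters from RefSeq (GRCh38.p14) were matched by symbol, synonym or identifier and kept where the start lay on the gene's chromosome and strand within 100000 bases, a check added after first matches were seen. Python 3.11.15, pandas 2.3.3, numpy 2.4.6, scipy 1.17.1 and matplotlib 3.10.9 were used. Alternatives were other thresholds, floors, scalings and promoter windows.

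The members and lists were chosen with earlier results of these data known. Named genes were, among those called, the 10 largest protein-coding changes in each direction, the 2 largest per direction in each expression class and in each other biotype with 20 or more members, and per list the 3 largest per direction, the gene with the highest count and members not called where 5 or fewer. MDM2, CDKN1A and the 3 largest differences between siRNAs in each direction were added. Some genes that the rule names are not reported here. Genes shown for their motifs or count shifts, and genes set beside these, were chosen after their values were seen.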

Additional observations from a re-analysis of the deposited data

Results flagged for a closer look

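Genes named in the report were singled out where the Nutlin-3a effect in siRFX7 cells differed from that in siControl cells by the z test of the difference (adjusted p below 0.05 over 23195 genes) and by at least 1 on the log2 scale. Genes with a group mean at or below 3 counts were left out, since their fitted change is not a measured size. In all, 1268 protein-coding members passed the test at any size. The values below are the log2 fold change in siRFX7 cells minus that in siControl cells, computed from the authors' deposited tables, and no explanation was tested. Because the named genes were picked for large siControl changes, a difference toward 0 is partly built into the choice.

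Among p53 targets and other genes that rose, the difference was -2.40 for INPP5D, -2.30 for AC025423.4, -2.01 for MXD4, -1.98 for RNF157-AS1 and -1.76 for KLHDC7A. It was -1.43 for GALNT5, -1.32 for TP53I3, -1.28 for TNFRSF10C, -1.26 for SORCS2, -1.17 for FDXR, -1.12 for TP53INP1 and -1.09 for ABCA1. TSPYL2, not called in siControl cells, stood at -1.48. Values of AC025423.4 may hold reads of MDM2, whose exons cover all of its own on the other strand.

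Among named genes of replication and mitosis, differences of this size were all below 0, a deeper fall in siRFX7 cells. This does not hold for the replication lists as a whole. At any size, the difference was below 0 in 4 and above 0 in 3 of 29 licensing genes. It was below 0 in 2 and above 0 in 5 of 29 polymerase and fork genes. In the mitotic lists, called differences were mostly below 0. They numbered 15 below and 0 above in 30 G2/M genes, 13 and 1 in 41 kinetochore genes, and 5 and 1 in 14 mitotic kinesins. Among the named genes, the difference was -1.88 for NEK2, -1.84 for SPC25, -1.79 for GTSE1, -1.57 for MCM10, -1.49 for SKA1, -1.46 for FAM111B, -1.45 for KIF2C, -1.43 for RRM2 and -1.42 for both CKAP2L and KIFC1. It was -1.23 for ERCC6L, -1.21 for BIRC5 and NCAPH, -1.13 for ASF1B, -1.11 for PLK1, -1.02 for NCAPG and -1.01 for CDC20.

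Differences above 0 were 2.49 for CHAC1, 2.25 for HKDC1, 2.03 for SLC1A4, 1.59 for PCK2, 1.38 for SLC7A11, 1.15 for WNT7B, 1.105 for KIF21B and 1.04 for HERPUD1. CHAC1, SLC1A4, PCK2 and SLC7A11 are targets of ATF4.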

How the results depend on the processing

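Counts of called protein-coding genes stayed within 1.5 times of the values in the report with an adjusted p below 0.01, with adjustment over the members alone, with floors of 20, 100 or none, and under both scalings. A minimum size moved them: 1688 higher and 1672 lower at 0.58 or more, 706 and 846 at 1 or more, and 1007 and 1052 in a z test against a minimum of 0.58. Over all biotypes, where 8723 genes were called, the same settings gave 3901, 1781 and 2299. The 1268 differences between siRNAs became 785 with an adjusted p below 0.01. Of 716 values of 358 named genes under both scalings, 0 reversed, 3 calls were lost and 3 gained. Of 86 list medians, 5 reversed, all near 0: the p53 feedback list to -0.011 at equal totals and -0.0068 with the median centred, the unfolded protein response to -0.013 and -0.0083, and the nuclear respiratory chain to -0.0035 at equal totals. Of 172 list counts, 4 moved by over 1.5 times: under both scalings 2 death and decoy receptors in place of 1 were lower, and 1 recombination gene in place of 2 was higher. In the 250 bases before the start alone, the CHR was in 11.1% of genes called lower and in 19.03%, 24.5% and 29.4% of those that fell by at least 1, 2 and 3. The E2F site was there in 7.16% of genes called lower and in 8.15% and 9.31% of those that fell by at least 1 and 2, and the CCAAT box in 33.1% of genes not called. No paired analysis was possible because the deposited tables carry no values per library, and leaving out single replicates was not run for the same reason. Depth per library was not used here. At 50 to 100 mean counts no change below 0.39 was called.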
